A study of Mus musculus with 74 samples.

Results

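A total of 15 genes of 24851 in the cell line tables had a short-lived response to lipopolysaccharide (LPS) in RAW264.7 macrophages. They were high at 60 min and lower again by 120 min, at 1.09 (9830144P21Rik) to 12.9 times (Errfi1) their 0 min level. They were selected on the RAW264.7 values alone, from the mean of the 2 libraries of each time plus 1. The mean at 60 min had to be at least 3 times that at 0 min and at least 100 normalized reads, and the ratio of 120 over 60 min at most 0.5. These limits held for 28 genes. Of these, 13 were set aside by name (Btg2, Jun, Fosl2, Fosb, Zfp36, Nfkbid, Ppp1r15a, Dusp8, Ier2, Egr2, Egr3, Nr4a1 and Egr1). The rule dropped names starting with Slc, Zfp, Hist, Egr, Ier, Fos, Jun, Dusp, Klf, Nr4a, Per, Cxcl, Ccl, Tnf, Socs, Nfkb or Il. It also dropped Btg2, Atf3, Maff, Myc and Ppp1r15a. The remaining 15 were Errfi1, Insig1, Arc, Dnajb1, Chka, Trib1, Sertad1, Plk3, Itpkc, Adamts1, Gem, Bcar1, Gdf15, 9830144P21Rik and 1810011O10Rik, for which RefSeq uses the symbol Tcim. The RAW264.7 course is therefore a description and carries no test, and lines 264 and 3205, which the selection did not use, were tested. Comparisons of the edited lines with RAW264.7 are descriptions too. The selection favoured RAW264.7 values high at 60 min and low at 0 and 120 min.

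The study asks how histone H3.3 and its phosphorylation act in stimulated macrophages, and it holds 74 samples. Used here were 18 RNA libraries, 2 for each of 3 lines at 0, 60 and 120 min of LPS, and 12 ChIP libraries of primary bone marrow derived macrophages. RAW264.7 is a mouse macrophage-like line and stands as the wild type. Lines 264 and 3205 derive from it, and the series speaks of hypomorphic and CRISPR-made H3f3a/H3f3b double knockout lines without saying which number is which. Each number stands for 1 line in these tables, so features of that line and loss of H3.3 cannot be told apart. No source used here gives the LPS dose of the lines. A tissue label on the line libraries names bone marrow macrophages where their source label names the RAW264.7 line.

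When LPS binds its receptor complex on a macrophage, kinase cascades and NF-kB switch on a first set of genes within minutes, without new protein synthesis. Many of these genes encode factors that restrain the signal that induced them, and their transcripts often vanish quickly because transcription stops and the mRNA is unstable. H3.3 is the histone variant laid down in transcribed genes outside DNA replication, and phosphorylation of its serine residue that other H3 forms lack marks genes induced by stimulation.

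Most of the genes were short. The 14 with a RefSeq gene span had a median length of 7.85 kb (1.77 to 42.8 kb), against 16.8 kb over 16089 genes of the tables and 5.30 kb over the 13 genes set aside by name. Promoter sequence from RefSeq (GRCm38.p6, 250 bases before to 50 after the start site) was at hand for 10 of the 15, all but Arc, Trib1, Gem, 9830144P21Rik and 1810011O10Rik. The core of the cyclic AMP response element, TGACG on either strand, occurred in 7 of these 10 (70%: Errfi1, Insig1, Dnajb1, Chka, Plk3, Itpkc and Adamts1). It occurred in 23% of 27025 genes with such a window. The stretches below are those that lie wholly upstream of the start site, printed 5′ to 3′ on the strand of the gene with the core in capitals, since this was the motif that most of these genes shared. The stretches around the cores of Dnajb1 and Chka reach past the start site and are not printed. For Errfi1 the capitals mark the full palindrome TGACGTCA, which contains the core on both strands, and in Itpkc they mark a pair of cores. CGTCA is the core read on the opposite strand.
Errfi1, chr4:150854999-150855046, plus strand: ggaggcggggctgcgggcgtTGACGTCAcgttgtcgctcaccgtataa
Insig1, chr5:28071162-28071196, plus strand: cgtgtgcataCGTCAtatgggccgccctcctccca
Plk3, chr4:117134071-117134115, minus strand: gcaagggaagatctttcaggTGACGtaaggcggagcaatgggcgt
Plk3, chr4:117134002-117134046, minus strand: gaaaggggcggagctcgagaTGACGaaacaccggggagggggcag
Itpkc, chr7:27228657-27228709, minus strand: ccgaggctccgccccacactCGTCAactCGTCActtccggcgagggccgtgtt
Adamts1, chr16:85803259-85803303, minus strand: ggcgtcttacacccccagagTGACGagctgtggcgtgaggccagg
For Errfi1, which has 2 start sites in RefSeq, the window of 1 of them holds the palindrome, which began 51 bases before the start. The Itpkc cores began 72 bases before the start, and those of Plk3 132 and 63 bases before it. The palindrome occurred in 2.03% of genes. The AP-1 site TGANTCA and matches to the NF-kB site and to the serum response CArG box, searched on both strands, were in the windows of 0 of the 10 genes, against 8.97%, 9.55% and 1.81% of genes. TATAAA on the strand of the gene was in those of 2 genes (Errfi1 and Adamts1) and in 9.77% of genes. These are letter matches in a window of 300 bases, with no measurement of binding.

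Libraries held 13.1 M to 53.9 M reads, the fewest in a RAW264.7 library at 60 min. All 11 measured macrophage markers were present in each line, with summed levels of 377200 to 495600 normalized reads in RAW264.7, 146800 to 235500 in line 264 and 209000 to 305200 in line 3205. Markers of B cells summed to at most 152 (line 3205), of T and NK cells to at most 13.7, and of fibroblasts and epithelium to at most 3.48. H3f3a, an H3.3 gene, checked the lines. At 0 min the RAW264.7 libraries held 2926 and 2055 normalized reads of it and those of line 264 held 188 and 236. Line 3205, at 76.2 and 63.4, had less than line 264 (log2 difference -1.59 ± 0.22 SE, adjusted p = 0.0016). H3f3b, the other H3.3 gene, stood at 15367 and 13623 in RAW264.7. Line 264 had 5642 and 7145 of it and line 3205 had 7177 and 7437, so its transcript was present in both edited lines, and read counts do not show whether it can be translated. A normalized read is a read count divided by the library's size factor, and log2 changes were fitted with limma to values plus 1, with n = 2 libraries per group. The p-values rest on the spread between samples that may be technical replicates, since no label says they came from separate cultures. In bulk RNA, fewer responding cells and less RNA per cell cannot be told apart.

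**Figure D1:**
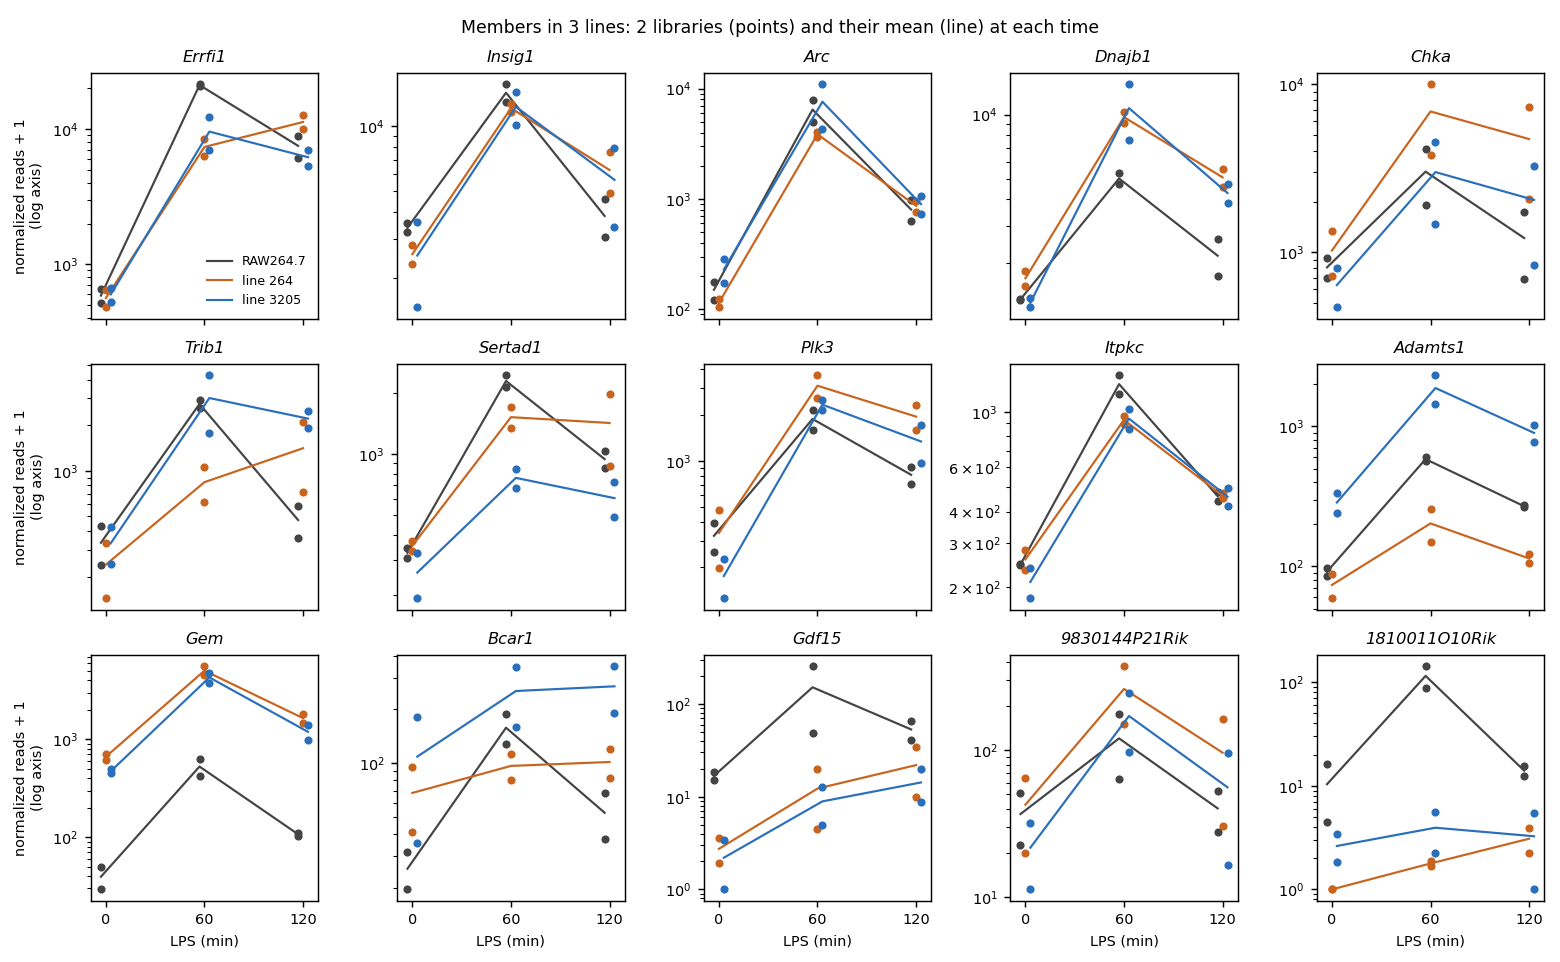
Normalized reads plus 1 (log axis) of the 15 genes at 0, 60 and 120 min of LPS in RAW264.7 (grey), line 264 (orange) and line 3205 (blue), with each of the 2 libraries as a point and lines through the means. Every RAW264.7 mean peaks at 60 min because the genes were chosen for it. In line 264 the means of Errfi1, Trib1, Bcar1, Gdf15 and 1810011O10Rik are higher at 120 than at 60 min. Those of Bcar1 and Gdf15 are so in line 3205 too, and Gem lies far above RAW264.7 in both edited lines.

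In both edited lines most of the genes still responded at 60 min. In line 264, 8 of the 15 rose (Errfi1, Arc, Dnajb1, Gem, Itpkc, Sertad1, Plk3 and Insig1), against 0.821% of all 17301 genes tested. In line 3205, 10 of the 15 rose, the same 8 with Adamts1 and Trib1, against 0.948% of all genes. With the replicate number as a block the counts were 11 in line 264 (2.1% of all genes) and 12 in line 3205 (2.33%). The median log2 change over the 15 was 2.24 in line 264 and 2.69 in line 3205, where the median over all genes was -0.01 and 0.00. All 15 passed the filter on low values, because the selection demanded reads at 60 min in RAW264.7. None fell in either line by limma, and the fitted change was above 0 for all 15 in both.

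**Figure D2:**
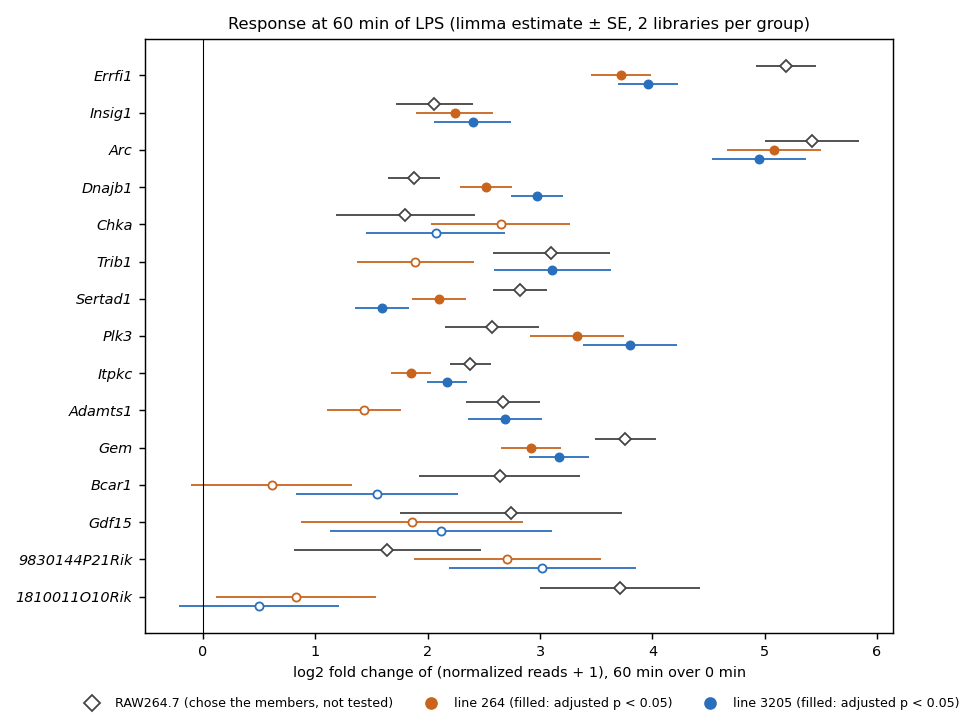
Fitted log2 change from 0 to 60 min of LPS for each gene (limma estimate ± SE, 2 libraries per group), filled where adjusted p was below 0.05. Arc and Errfi1 lie farthest to the right in all 3 lines, and Chka, Bcar1, Gdf15, 9830144P21Rik and 1810011O10Rik have open symbols in both edited lines.

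After 60 min some of the genes came down in the edited lines as well, and the falls of Arc, Gem and Itpkc were calls in both. A ratio of 120 over 60 min of at most 0.5 was found for 4 of the 15 in line 264 (3.43% of all 17367 genes) and 7 of the 15 in line 3205 (2.76%), against all 15 in RAW264.7 by selection (6.05%). Among genes at least 3-fold up at 60 min with a mean there of at least 100, the shares were larger. They were 17.3% of 104 genes in line 264 and 20.5% of 112 in line 3205, with 11 of the 15 among these genes in each line. These shares include the genes that met the limits in RAW264.7. Of the induced genes that did not meet them there, 4 of 81 had such a ratio in line 264 and 5 of 89 in line 3205. The median ratio over the 15 was 0.627 in line 264, 0.573 in line 3205 and 0.351 in RAW264.7. The selection capped the RAW264.7 ratio and set no limit on the edited lines, so it favoured a lowest median in RAW264.7. No test compares the lines on it. By the fit over all 18 libraries, 3 of the 15 fell from 60 to 120 min in line 264 (Arc, Gem and Itpkc, against 1.14% of all genes). In line 3205, 4 fell (these 3 and Dnajb1, against 1.19%). With the replicate number as a block the counts were 7 in line 264 (4.26% of all genes) and 8 in line 3205 (3.89%). The added falls were those of Insig1, Plk3 and 9830144P21Rik in both lines, of Dnajb1 in line 264 and of Adamts1 in line 3205.

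These counts depended on single libraries. Without the line 264 library numbered 1 at 60 min, or that numbered 1 at 120 min, 0 of the 15 fell in line 264, and without that numbered 2 at 60 min 1 did. Without the line 3205 library numbered 1 at 60 min, or that numbered 2 at 120 min, 2 fell. The change from 60 to 120 min differed between the edited lines for 0 of the 15 and 0 of 17367 genes (0%) in limma, in a comparison added after the data were seen. It had an unadjusted p below 0.05 for 1 of the 15, Errfi1, and edgeR and DESeq2 also called 0 of the 15.

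**Figure D3:**
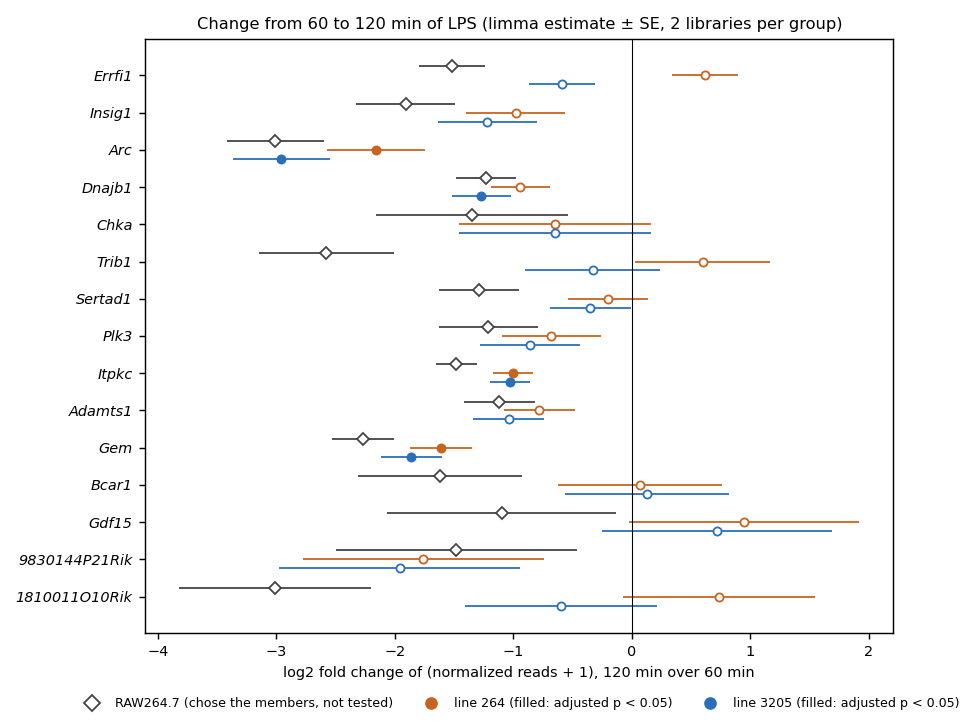
Fitted log2 change from 60 to 120 min (limma estimate ± SE, 2 libraries per group). Symbols left of 0 stand for genes lower at 120 than at 60 min, and filled symbols, those of Arc, Gem, Itpkc and, in line 3205, Dnajb1, mark adjusted p below 0.05.

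The first group holds genes that act on signalling. Errfi1 (chromosome 4, 150853796 to 150868889) encodes a feedback inhibitor of the EGF receptor family. In RAW264.7 it stood at 653 and 515 normalized reads at 0 min, 20961 and 21444 at 60 min, and 6104 and 8938 at 120 min. In line 264 the values were 642.5 and 478, then 6318 and 8437, then 9970.2 and 12617. In line 3205 they were 670.3 and 522, then 12221 and 6949, then 7049 and 5339. The 3 lines overlapped at 0 min, and at 60 min every library of the edited lines lay below both RAW264.7 libraries, with means at 0.348 and 0.452 of the RAW264.7 mean. The gene was chosen for a high RAW264.7 level at 60 min, so this difference is a description. Errfi1 rose by 3.72 ± 0.27 in line 264 (adjusted p = 8.7e-05) and by 3.96 ± 0.27 in line 3205 (adjusted p = 4.8e-05). In line 264 both libraries at 120 min were above both at 60 min, and the fitted further change was 0.62 ± 0.28 (adjusted p = 0.43). In line 3205 it was -0.59 ± 0.28 (adjusted p = 0.51), and the difference between these changes was -1.21 ± 0.40 (unadjusted p = 0.0098, adjusted p = 1).

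Trib1 (chromosome 15, 59648654 to 59657099) encodes a pseudokinase that directs the degradation of C/EBP transcription factors. Its RAW264.7 values were 431 and 237, then 2924 and 2593, then 359.6 and 585, so that the 0 and 120 min libraries overlapped. Line 264 gave 143 and 335, then 626 and 1055, then 722 and 2095, and line 3205 gave 422 and 241.5, then 4260.5 and 1781, then 2498 and 1921. At 120 min every edited library was above both RAW264.7 libraries, with means 2.98 and 4.67 times the RAW264.7 mean. The selection required a low RAW264.7 level at 120 min, so this is a description and was not tested. At 60 min Trib1 rose in line 3205 (3.11 ± 0.52, adjusted p = 0.019), a call lost without either 0 min library or the 60 min library numbered 1 (adjusted p up to 0.17). Its change in line 264 was 1.89 ± 0.52 (adjusted p = 0.19, and 0.071 with the replicate block). At 120 min against 0 it rose by 2.48 ± 0.56 in line 264 (adjusted p = 0.033) and by 2.77 ± 0.56 in line 3205 (adjusted p = 0.021), the first lost without the 0 min library numbered 1 or the 120 min library numbered 2 (up to 0.24) and the second without any 1 of the 4 libraries (up to 0.13).

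Plk3 (chromosome 4, 117128655 to 117133963), a stress-responsive Polo-like kinase, stood at 251 and 391, then 1600.3 and 2178, then 707 and 914 in RAW264.7. Line 264 had 197 and 475, then 2597 and 3654, then 1595 and 2321. Line 3205 had 124 and 225, then 2178 and 2514, then 972 and 1715. The library numbered 2 was the higher in 9 of 9 groups. Plk3 rose at 60 min by 3.33 ± 0.42 in line 264 (adjusted p = 0.0031) and by 3.80 ± 0.42 in line 3205 (adjusted p = 0.0013), and at 120 min it was still above 0 min by 2.65 ± 0.46 (adjusted p = 0.0098) and 2.94 ± 0.46 (adjusted p = 0.0059). Both later calls were lost without the 0 min library numbered 1, and that of line 264 also without the 120 min library numbered 2 (adjusted p up to 0.076 in line 264 and 0.059 in line 3205). The change from 60 to 120 min was -0.68 ± 0.42 in line 264 (adjusted p = 0.68, and 0.047 with the block), and it was -0.86 ± 0.42 in line 3205 (adjusted p = 0.54, and 0.016 with the block).

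Itpkc (chromosome 7, 27207170 to 27228617) encodes a kinase that phosphorylates inositol trisphosphate, the messenger that releases calcium. It had 246 and 244, then 1182 and 1397, then 441 and 479.8 in RAW264.7. Line 264 gave 281 and 233, then 960.1 and 896, then 452 and 472, and line 3205 gave 238 and 179, then 1024.5 and 853, then 494 and 422. The groups of each line did not overlap between times, and the edited lines peaked at 72.0% and 72.8% of the RAW264.7 mean. Selection on a high RAW264.7 peak favours such lower shares, which were not tested. Itpkc rose by 1.85 ± 0.18 in line 264 (adjusted p = 0.00073) and by 2.17 ± 0.18 in line 3205 (adjusted p = 0.0002). It then fell by 1.0 ± 0.17 on the log2 scale in line 264 (adjusted p = 0.0079) and by 1.03 ± 0.17 in line 3205 (adjusted p = 0.007). The falls were lost without some libraries, in line 264 either at 60 min or that numbered 1 at 120 min (adjusted p up to 0.09), and in line 3205 that numbered 1 at 60 min or 2 at 120 min (up to 0.1).

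Gem (chromosome 4, 11704447 to 11714993) encodes a small GTPase of the RGK family, which restrains calcium channels. Its level set the edited lines apart from RAW264.7, a description that was not tested, since the RAW264.7 values chose the gene. RAW264.7 had 28.3 and 48.6, then 419 and 634, then 103 and 109.8. Line 264 had 708 and 619, then 5557 and 4500.3, then 1485 and 1805, and line 3205 had 495 and 448, then 4811 and 3769, then 994 and 1390.2. Both 0 min libraries of line 264 exceeded the RAW264.7 mean at 60 min (526), and the means of the edited lines were 16.84 and 11.97 times that of RAW264.7 at 0 min. On this higher level Gem rose by 2.92 ± 0.27 in line 264 (adjusted p = 0.0005) and by 3.17 ± 0.27 in line 3205 (adjusted p = 0.00021). It then fell by 1.61 ± 0.26 (adjusted p = 0.0067) and by 1.86 ± 0.26 (adjusted p = 0.0028) on the log2 scale. The fall in line 264 was lost without the library numbered 1 at 60 min or that numbered 1 at 120 min (adjusted p up to 0.087).

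Bcar1 (chromosome 8, 111710474 to 111743849), an adaptor protein of integrin signalling, had no called response at 60 min in the edited lines. RAW264.7 had 30.5 and 18.5, then 187 and 127, then 66.6 and 36.6, with no overlap between 60 min and either other time. Line 264 had 93.7 and 40.2, then 111 and 79.5, then 119 and 81.9, and line 3205 had 181 and 34.7, then 347 and 159, then 348 and 189.6. Libraries at 0 and 60 min overlapped in both edited lines, and the library numbered 2 was the higher in 0 of 9 groups. The change at 60 min was 0.61 ± 0.72 in line 264 (adjusted p = 1), and it was 1.55 ± 0.72 in line 3205 (adjusted p = 0.71), so neither was a call. At 120 min the change from 0 min was 0.67 ± 0.73 in line 264 (adjusted p = 0.72). It was 1.68 ± 0.73 in line 3205 (adjusted p = 0.29, and 0.018 with the block). That the response at 60 min was smaller than in RAW264.7 is a description, since RAW264.7 chose the gene.

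The second group acts in the nucleus. Sertad1 (chromosome 7, 27486953 to 27490316), a transcriptional co-regulator that also binds cyclin-dependent kinases, stood at 304 and 344, then 2144 and 2445, then 847 and 1038 in RAW264.7. Line 264 had 331 and 371, then 1342 and 1698, then 871 and 1974, and line 3205 had 324 and 192, then 845 and 677, then 724 and 485. At 60 min the 3 lines did not overlap, with RAW264.7 highest and line 3205 lowest. That RAW264.7 was highest is a description, since its level at 60 min chose the gene. Sertad1 rose by 2.10 ± 0.24 in line 264 (adjusted p = 0.0016) and by 1.59 ± 0.24 in line 3205 (adjusted p = 0.0097), the latter lost without the 60 min library numbered 1 (adjusted p = 0.11). Its level at 60 min was lower in line 3205 than in line 264 by 1.0 ± 0.24 on the log2 scale (adjusted p = 0.027, 0.011 with the block, and 0.06 to 0.19 without any 1 of the 4 libraries).

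1810011O10Rik (Tcim, chromosome 8, 24437172 to 24438946), a small regulator linked to inflammatory and Wnt-dependent transcription, had at most 9 reads per group in the edited lines. RAW264.7 had 15.2 and 3.47, then 141 and 87.1, then 14.7 and 11.4 normalized reads. Line 264 had 0 and 0, then 0.695 and 0.864, then 2.95 and 1.22, and line 3205 had 0.856 and 2.39, then 4.63 and 1.25, then 4.52 and 0. In reads, line 264 had 0 at 0 min, 2 at 60 min and 4 at 120 min over both libraries, and line 3205 had 3, 9 and 7, where RAW264.7 at 60 min had 128. The read ratio of 60 over 0 min in line 3205 was 1.93 (95% interval 0.482 to 11.1, exact, counting error only), so no response was detectable at this depth.

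The third group acts in lipid metabolism and protein folding. Insig1 (chromosome 5, 28071412 to 28078662) encodes an endoplasmic reticulum protein that holds back the sterol-regulated activation of SREBP. It stood at 3230.2 and 3562, then 12906 and 15538, then 3094 and 4603 in RAW264.7, at 2311 and 2825, then 11561 and 12571, then 4928 and 7606 in line 264, and at 1459.5 and 3601, then 10137 and 14372, then 3409 and 7882 in line 3205. Peaks were close, at 84.8% and 86.2% of the RAW264.7 mean, a description since that mean chose the gene. The library numbered 2 was the higher in 9 of 9 groups. Insig1 rose by 2.24 ± 0.34 in line 264 (adjusted p = 0.011) and by 2.4 ± 0.34 in line 3205 (adjusted p = 0.0071). Leaving out the 0 min library numbered 1 or either 60 min library ended the call in line 264 (adjusted p up to 0.11), as did the 60 min library numbered 2 in line 3205 (0.081). From 60 to 120 min the change was -0.98 ± 0.42 (adjusted p = 0.38, and 0.029 with the block) and -1.22 ± 0.42 (adjusted p = 0.22, and 0.0093 with the block).

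Dnajb1 (chromosome 8, 83608175 to 83612653), a co-chaperone of HSP70, was higher at its peak in the edited lines. RAW264.7 had 1348 and 1364, then 4698 and 5325, then 1754 and 2593. Line 264 had 1833 and 1572, then 10321 and 9136, then 4593 and 5552, and line 3205 had 1371 and 1243, then 13863 and 7596, then 4727 and 3835. At 60 and at 120 min every edited library was above both RAW264.7 libraries, by 1.941 and 2.141 times in the means at 60 min. Both are descriptions, and at 120 min the selection itself required a low RAW264.7 level. Dnajb1 rose by 2.52 ± 0.23 in line 264 (adjusted p = 0.00044) and by 2.97 ± 0.23 in line 3205 (adjusted p = 0.00012). It then fell by 1.27 ± 0.25 on the log2 scale in line 3205 (adjusted p = 0.016, and up to 0.17 without the library numbered 1 at 60 min or either at 120 min), and changed by -0.94 ± 0.25 in line 264 (adjusted p = 0.072, and 0.026 with the block).

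Chka (chromosome 19, 3851585 to 3894369), which starts phosphatidylcholine synthesis from choline, split by replicate number in every group. RAW264.7 had 699 and 922, then 1896 and 4124, then 695 and 1728. Line 264 had 715 and 1326, then 3782 and 9948.5, then 2069 and 7336, and line 3205 had 468 and 803, then 1473.5 and 4510.0, then 835 and 3251. The library numbered 2 was the higher in 9 of 9 groups, by a median of 2.48 times. Without the block the change at 60 min was 2.65 ± 0.62 in line 264 (adjusted p = 0.098), and it was 2.07 ± 0.62 in line 3205 (adjusted p = 0.26). With it both were calls (adjusted p = 0.00011 and 0.0006).

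The fourth group is secreted. Adamts1 (chromosome 16, 85793827 to 85803113), a metalloprotease of extracellular proteoglycans, differed between the edited lines at every time. RAW264.7 had 96.9 and 84.5, then 599.7 and 565, then 272 and 264. Line 264 had 87.4 and 58.1, then 256 and 148, then 121 and 105, and line 3205 had 239 and 331, then 1444 and 2309.6, then 766 and 1028. At each time all libraries of line 3205 were above those of RAW264.7, and from 60 min on all of line 264 were below them. These comparisons with RAW264.7 are descriptions, since its values chose the gene. Line 3205 exceeded line 264 by 1.97 ± 0.33 at 0 min (adjusted p = 0.0043), 3.22 ± 0.33 at 60 min (adjusted p = 0.00023) and 2.97 ± 0.27 at 120 min (adjusted p = 0.00014) on the log2 scale, and no single library ended these calls. Adamts1 rose by 2.69 ± 0.33 in line 3205 (adjusted p = 0.0025). In line 264 the change was 1.43 ± 0.33 (adjusted p = 0.09, and 0.03 with the block).

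Gdf15 (chromosome 8, 70629393 to 70632470), a stress-induced cytokine of the TGF-beta superfamily, had few reads in the edited lines. RAW264.7 had 14.2 and 17.4, then 47.5 and 253, then 40.0 and 64.4, so its peak rested mostly on the library numbered 2. Line 264 had 0.91 and 2.57, then 3.48 and 19.0, then 8.84 and 33.0, and line 3205 had 0 and 2.39, then 3.97 and 11.8, then 7.74 and 18.7. In both edited lines the means were highest at 120 min. Summed over the pair of libraries, line 264 had 4, 27 and 36 reads, a ratio of 5.9 at 60 min (95% interval 2.06 to 23.2, exact, counting error only) and 11.1 at 120 min (3.99 to 43.0). Line 3205 had 2, 25 and 39 reads, ratios of 8.04 (2 to 70) and 13.1 (3.38 to 112). Between libraries the log2 change at 120 min was 2.81 ± 0.79 in line 264 (adjusted p = 0.075, and 0.0033 with the block), and it was 2.83 ± 0.79 in line 3205 (adjusted p = 0.078, and 0.0035 with the block).

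Of the last pair, Arc (chromosome 15, 74669081 to 74672570) is known as an activity-dependent gene of neurons whose protein forms capsid-like shells. It stood at 121 and 177, then 4979 and 7944.5, then 623 and 974.6 in RAW264.7. Line 264 had 103 and 123, then 3643 and 4074, then 763 and 966, and line 3205 had 285 and 171, then 10937 and 4294, then 1067 and 725. No line had overlap between 60 min and the other times. Arc rose by 5.08 ± 0.42 in line 264 (adjusted p = 0.00021) and by 4.95 ± 0.42 in line 3205 (adjusted p = 0.0002), the widest responses of the 15 in those lines. It then fell by 2.16 ± 0.41 (adjusted p = 0.015) and by 2.96 ± 0.41 (adjusted p = 0.0022) on the log2 scale. The fall in line 264 was lost without either 60 min library or the 120 min library numbered 1 (adjusted p up to 0.13).

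9830144P21Rik had no RefSeq match and no role is given here. It stood at 21.8 and 49.8, then 62.3 and 177, then 26.6 and 51.8 in RAW264.7, at 19.1 and 64.1, then 150.2 and 372, then 29.5 and 161 in line 264, and at 10.3 and 31.1, then 96.6 and 244, then 15.5 and 94.4 in line 3205. Like Chka it split by replicate number, with the library numbered 2 the higher in 9 of 9 groups by a median of 2.81 times. Its change at 60 min was 2.71 ± 0.83 in line 264 (adjusted p = 0.26, and 9.4e-05 with the block), and it was 3.02 ± 0.83 in line 3205 (adjusted p = 0.2, and 4.2e-05 with the block).

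At 120 min against 0 min, 8 of the 15 were higher in line 264, against 2.88% of all 17450 genes, and 8 in line 3205, against 2.89%. Those shared were Errfi1, Arc, Dnajb1, Plk3, Trib1, Itpkc and Gem, with Sertad1 in line 264 and Adamts1 in line 3205. The log2 changes ran from 0.85 ± 0.20 for Itpkc (adjusted p = 0.037) to 4.34 ± 0.25 for Errfi1 (adjusted p = 1.7e-05) in line 264. In line 3205 they ran from 1.14 ± 0.20 for Itpkc (adjusted p = 0.01) to 3.37 ± 0.25 for Errfi1 (adjusted p = 5.4e-05). Errfi1 was called without any 1 library, while Itpkc was lost without any 1 of 4 libraries in line 264 (adjusted p up to 0.16) and without the 0 min library numbered 2 or the 120 min library numbered 1 in line 3205 (up to 0.093). With the block, 13 of the 15 were higher in line 3205 (7.18% of all genes). In line 264 the block added Insig1 (adjusted p = 0.0073), Chka (adjusted p = 0.0024) and Gdf15 (adjusted p = 0.0033). The 120 and 60 min comparisons share the 0 min libraries. The count in line 264 was 3 without the 0 min library numbered 1 or the 120 min library numbered 2, and 5 without the 0 min library numbered 2. In line 3205 it was 4 without the 0 min library numbered 1 and 5 without any 1 of the others.

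Few of the genes differed in level between the edited lines, a share near that of all genes. At 0 min 1 of the 15 differed (Adamts1, against 10.4% of all genes). At 60 min 2 did (Adamts1 and Sertad1, 10.2%), and at 120 min 1 (Adamts1, 9%). With the block the counts were 3 (21.2% of all genes), 5 (20.4%) and 4 (19.5%), and Plk3 and 9830144P21Rik joined at 0 min, Trib1, Chka and Bcar1 at 60 min, and Errfi1, Chka and Bcar1 at 120 min. The response at 60 min itself differed between the edited lines for 0 of the 15 and 0 of 17301 genes (0%) in limma, with 1 of the 15, Adamts1, at an unadjusted p below 0.05 (log2 difference 1.26 ± 0.47, adjusted p = 1). With the block, with edgeR and with DESeq2 the count was also 0 of the 15.

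Lists of known LPS genes and mRNA decay factors give the setting of the 15. Of 43 early LPS genes outside the 15, 27 rose at 60 min in line 264 (0.821% of all genes) and 32 in line 3205 (0.948%), with Ppp1r15a, Nfkbiz, Zfp36 and Tnfaip3 at the smallest p in both (log2 changes of 5.42, 6.41, 5.76 and 5.06 in line 264). From 60 to 120 min 4 of 44 rose in line 264 (1.15% of all genes) and 5 in line 3205 (1.09%). Over the same interval 10 fell in line 264 (1.14% of all genes) and 14 in line 3205 (1.19%), among them Ier2 by 1.78 ± 0.20 on the log2 scale (adjusted p = 0.00059) and by 2.85 ± 0.20 (adjusted p = 1.8e-05). This list holds most of the genes that the name rule set aside, so it is not independent of the selection. Of late LPS genes, 7 of 27 rose at 60 min in each edited line (0.821% and 0.948% of all genes). At 120 min 15 of 28 were higher in each (2.88% and 2.89% of all genes). Of 24 mRNA decay factors, 3 rose at 60 min in each edited line (Zfp36, Zc3h12a and Btg2, against 0.821% and 0.948% of all genes). From 60 to 120 min 3 fell in each (Zfp36, Btg2 and Zfp36l2, against 1.14% and 1.19% of all genes). Zfp36 and Btg2 met the limits in RAW264.7, were set aside by name and are in the early list too. These counts are therefore not independent of the selection either. Over that interval Zc3h12c rose by 1.67 ± 0.29 in line 264 (adjusted p = 0.0095), and it also rose in line 3205 (adjusted p = 0.0021). Zfp36, whose product binds AU-rich mRNAs and promotes their decay, rose by 5.76 ± 0.21 in line 264 (adjusted p = 7e-07) and by 5.83 ± 0.21 in line 3205 (adjusted p = 4.9e-07). Any action of its product on the 15 was not tested.

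Applied to the edited lines, the same numeric limits found 18 genes in line 264 and 23 in line 3205. Of these, 4 and 7 belonged to the 15, 10 and 11 to the genes set aside by name, and 4 and 5 to neither. The 4 in line 264 were Arc, Itpkc, Gem and 9830144P21Rik, and line 3205 added Insig1, Dnajb1 and Adamts1.

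The limits in RAW264.7 passed close to some genes. Just inside the fold limit were 9830144P21Rik (3.28-fold) and Dnajb1 (3.69-fold), and just outside it Hmgcs1 (2.79-fold) and Dnajb9 (2.62-fold). For the ratio of 120 over 60 min, Adamts1 (0.461) and Dnajb1 (0.434) were just inside and Arid5a (0.587) and Gm8818 (0.596) just outside. For the level at 60 min, 1810011O10Rik (114) and 9830144P21Rik (119.6) were just inside and Gm17024 (70.5) and Kdm6bos (64.3) just outside. On the libraries numbered 1 alone the limits kept 12 of the 15 and lost 9830144P21Rik, Chka and Gdf15. On those numbered 2 alone they kept 14 and lost 1810011O10Rik.

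In primary macrophages, where LPS was given at 100.0 ng/mL, the authors' deposited table held 193 genes with ChIP signal at 0 and 60 min, and 4 of the 15 were among them. Errfi1, Trib1, Gem and Gdf15 belonged to its 187 genes with a positive RNA change, at 2.49, 3.48, 7.16 and 4.35 on the log2 scale in the authors' deposited table. The header does not state which times that RNA comparison covers. Each mark had 1 library per time, so there is no replicate check and no test. H3S31ph, the phosphorylated serine of H3.3, had a signal of 1.78 at 0 min and 4.48 at 60 min on Errfi1, 2.29 and 11.4 on Trib1, 0.977 and 5.67 on Gem, and 2.27 and 7.82 on Gdf15. The ratios were 2.51, 4.99, 5.81 and 3.44, with a median of 4.21 against 3.89 over the 187 genes, and 98.9% of these had a ratio above 1.

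H3.3 itself gave ratios of 2.01 on Errfi1, 2.35 on Trib1 and 2.36 on Gdf15, and 0.913 on Gem, the lowest of the 187 genes, of which 98.9% were above 1. Divided by the H3.3 ratio, the H3S31ph ratio was 1.25 on Errfi1, 2.13 on Trib1, 6.36 on Gem and 1.46 on Gdf15. H3S28ph, a phosphorylated serine found on all H3 forms, ranged from 2.24 to 2.80 on the 4 genes (99.5% of the 187 above 1). H3K36me3, which marks transcribed gene bodies, ranged from 1.33 to 2.24 (96.8%). H3K27ac, a mark of active promoters and enhancers, was above 1 for 2 of the 4, Trib1 (1.13) and Gem (1.52), and below it for Errfi1 (0.934) and Gdf15 (0.718), where 72.7% of the 187 were above 1. H3K36me2 was above 1 for 3 of the 4, all but Errfi1 (0.907), where 52.4% were. With 4 genes and 1 library per time these values describe the genes only.

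**Figure D4:**
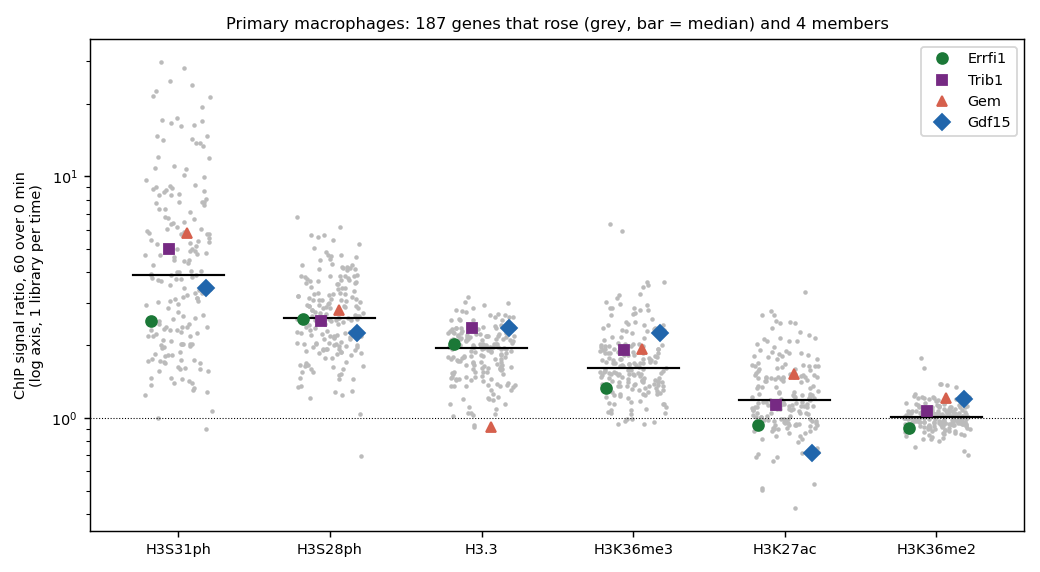
Ratio of ChIP signal at 60 over 0 min (log axis, 1 library per time) in primary macrophages for 6 targets. Grey points are the 187 genes with a positive RNA change and bars their medians, and Gem lies at the bottom of the H3.3 column at 0.913 and above the median of the H3S31ph column at 5.81.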

How the data were processed

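The authors' RNA files hold a normalized signal per gene and library. Per the submitters' processing notes, Trim Galore 0.5.0, STAR 2.4.2, featureCounts of Subread 1.4.6 and DESeq2 under R 3.4.0 were used with build mm10, and Bowtie2 2.3.4.1, Picard 2.14.0 and deepTools 2.5.4 are also named. Rescaled by 1 size factor per library, 100% of the deposited values came out as whole reads within 0.1. The 120 min table repeats the 0 min libraries of the 60 min table (median ratio 1.0), so both tables were read on 1 scale. Deposited log2 fold changes, a p-value and a score per gene are the authors', per the file headers, and of these only the log2 fold changes of 4 genes are printed. How the deposited ChIP signal was scaled is given in no source used here.

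limma 3.58.1 with trend (R 4.3.3) was fitted to log2(value + 1) for genes with a mean of at least 1, over the 12 libraries of each table or, from 60 to 120 min, over all 18. Calls had an adjusted p (Benjamini-Hochberg over all genes fitted) below 0.05. The design table had foreseen counts as 1 option, and the test for normalized values was used because the files hold normalized values. The scripts were tested on simulated data. edgeR 4.0.16 and DESeq2 1.42.0 were run on the recovered reads.

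Deviations of libraries with the same replicate number correlated in every pair of groups (15 pairs per table, r 0.156 to 0.564 at 60 min and 0.224 to 0.556 at 120 min, and 36 pairs over both, 0.159 to 0.614), so the numbers were taken to pair the samples and fits with a replicate block stand beside results they move.

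Members, lists of early and late LPS genes, of mRNA decay factors and of cell markers, and the rule for named genes (every member by role, with values in every library) were chosen with earlier results of these data known. A later set of line 3205 and the other samples were not analysed here.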

Additional observations from a re-analysis of the deposited data

How the results depend on the processing

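The numbers of the 15 genes called at 60 min (8 in line 264 and 10 in line 3205) stayed within 1.5 times under every alternative run, at 7 to 8 and 8 to 9 when a library was left out. With the replicate block, the counts of genes differing between line 3205 and line 264 were 3 at 0 min, 5 at 60 min and 4 at 120 min, and 13 were higher at 120 min in line 3205. The block gave 7 falls in line 264 and 8 in line 3205. edgeR on recovered reads with the block gave 3, 6, 5, 13, 7 and 8 in the same order. By that fit 22% of all genes differed between the edited lines at 0 min and 22.2% at 60 min. Blocked and unblocked fits gave 11 and 8 genes at 60 min and 11 and 8 at 120 min in line 264, and 12 and 10 at 60 min in line 3205. At 60 min the blocked and unblocked shares of all genes were 2.1% and 0.821% in line 264 and 2.33% and 0.948% in line 3205. limma without trend gave 1 difference at 60 min and 5 genes higher at 120 min in line 264, and DESeq2 gave 3 differences at 120 min. Leaving out 1 library gave 1 to 2 differences at each time, 3 to 6 genes higher at 120 min in line 264 and 4 to 5 in line 3205, and 0 to 3 falls in line 264 and 2 to 4 in line 3205. The limits that chose the genes found 12 without replicate 2 and 17 without replicate 1. The median H3S31ph ratio of 4 genes was 1.79 when each was divided by that of H3.3. Over the 187 genes the H3.3 ratio had a median of 1.95 and was above 1 for 98.9%. Such a division therefore lowers most of them and is not particular to the 4. The causes were not tested. No gene changed direction while called. For 1810011O10Rik, with at most 9 reads per group in the edited lines, no response was detectable at this depth.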
